A study of Mus musculus with 24 samples.

Results

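The vomeronasal type 2 receptor genes (V2Rs, symbols starting with Vmn2r) were taken by symbol and biotype from the RefSeq annotation of GRCm38.p6, the assembly of the mouse build mm10. The rule found 124 protein-coding genes, and 123 of them lay on assembled chromosomes and were used, among 21779 protein-coding genes in all. The remaining gene, Vmn2r122, lies on an unlocalised scaffold and was not analysed here. The genes fell into 20 clusters when genes closer than 500 kb were joined, on chromosomes 3, 4, 5, 6, 7, 10, 14, 17 and X. The largest cluster held 22 genes and 6 genes stood alone.

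V2Rs are class C G protein-coupled receptors with a large extracellular domain, and the basal sensory neurons of the vomeronasal organ use them to detect peptide and protein pheromones. Each neuron expresses a very small part of the repertoire, together with a broadly expressed family C receptor (Vmn2r1 to Vmn2r7), the G protein subunit Gnao1 and the channel Trpc2. The repertoire grew by tandem duplication, and chemoreceptor genes are held silent outside sensory tissue. H3K9me3 marks heterochromatin, and H1.0, encoded by H1f0, is a linker histone that binds nucleosomes where DNA enters and leaves them.

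The cells were iMGT-Myh6-eGFP-MEF, a line of mouse embryonic fibroblasts that expresses Mef2c, Gata4 and Tbx5 when doxycycline is given, and in which eGFP reports the cardiac gene Myh6. They were profiled by CUT&RUN, in which a nuclease brought to the antibody releases nearby DNA for sequencing. All groups share the line and its transgenes: ground-state cells had neither siRNA nor doxycycline, while day 1 cells had siControl, siJunb or siH1f0 and 1 day of 1 µg/mL doxycycline, so that siRNA and induction cannot be told apart between these states. H3K9me3 and H1.0 each had 2 ground-state and 2 day 1 siControl lists of peaks, and MEF2C had 2 siControl, 3 siJunb and 3 siH1f0 lists, all at day 1. No level of Junb or H1f0 was measured in the files used, so the knockdowns were not checked. No expression was measured, so the cell type was not checked against its markers, and peak cover says nothing of whether a receptor was transcribed.

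Lists of the same antibody differed widely in length, which bears on every value below. H3K9me3 lists covered 65.9 Mb and 315 Mb in the ground state (replicates 1 and 2) and 109 Mb and 363 Mb at day 1 (replicates 1 and 2). H1.0 lists covered 93.0 Mb and 1109 Mb in the ground state and 911 Mb and 28.6 Mb at day 1. MEF2C lists covered 13.4 to 89.8 Mb. The longer list of each mark and state (H3K9me3 replicate 2 in both states, H1.0 replicate 2 in the ground state and replicate 1 at day 1) also shares a naming style of the deposited lists. The longer lists were therefore compared with each other across states, and the shorter ones likewise.

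The promoters of these genes were first described by their sequence. RefSeq gave 118 windows, from 250 bases before to 50 after the annotated start, for 117 of the 123 genes. They were poor in GC, with a median of 38.2% against 56.3% over 21263 windows of all protein-coding genes, and held a median of 1 CpG against 13. The 250 bases upstream of the start are given for 5 genes, 5′ to 3′ on the strand of the gene, all on the minus strand of GRCm38.p6. Vmn2r84 (chr10:130394242-130394491), Vmn2r86 (chr10:130455895-130456144) and Vmn2r29 (chr7:7278290-7278539) are the genes whose promoter window lay under H3K9me3 peaks in all 4 lists, with CpG in capitals. They hold 3 of the 118 windows, and the share of all windows under the same rule is not given here.
Vmn2r84: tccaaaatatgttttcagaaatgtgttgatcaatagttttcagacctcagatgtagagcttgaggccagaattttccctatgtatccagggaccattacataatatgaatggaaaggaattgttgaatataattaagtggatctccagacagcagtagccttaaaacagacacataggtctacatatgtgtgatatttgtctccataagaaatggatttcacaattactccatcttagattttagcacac
Vmn2r86: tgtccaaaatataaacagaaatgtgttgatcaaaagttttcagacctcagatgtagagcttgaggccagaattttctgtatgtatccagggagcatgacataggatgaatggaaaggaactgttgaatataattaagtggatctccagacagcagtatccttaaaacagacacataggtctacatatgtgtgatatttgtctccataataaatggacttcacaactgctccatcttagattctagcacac
Vmn2r29: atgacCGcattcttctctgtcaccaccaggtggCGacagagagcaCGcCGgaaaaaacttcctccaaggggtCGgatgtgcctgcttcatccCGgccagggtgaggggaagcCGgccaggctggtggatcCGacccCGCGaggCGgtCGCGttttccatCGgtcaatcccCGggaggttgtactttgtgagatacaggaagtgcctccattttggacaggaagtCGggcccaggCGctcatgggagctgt
The first pair hold no CpG in these 250 bases, and their windows are 93.7% identical. The Vmn2r29 stretch holds 17 CpG and 60.8% GC, and its window reached 20.7% identity with that of its neighbour Vmn2r30. Vmn2r29 also has a second window (chr7:7247279-7247578), with 38.3% GC, 0 CpG and 95.3% identity to that of Vmn2r35. No peak of any of the 16 lists lay on this second window.

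Motifs of the factors under study were searched on both strands of the 300-base windows. TGACTCA, the site of AP-1 factors such as JUNB, was found in 31 of 118 Vmn2r windows (26.3%) and in 4.66% of all protein-coding windows. The MEF2 consensus was found in 12 (10.17%, against 2.74% of all), and TATAAA in 27 (22.9%, against 12.6%). Both of these patterns are largely A and T, and the receptor windows are poorer in GC (median 38.2% against 56.3%). The part of base composition in these shares was not tested. Vmn2r41 (chr7:8161552-8161801) and Vmn2r44 (chr7:8383239-8383488) carry a MEF2 consensus beside TGACTCA, both in capitals, the latter read here from the other strand as TGAGTCA.
Vmn2r41: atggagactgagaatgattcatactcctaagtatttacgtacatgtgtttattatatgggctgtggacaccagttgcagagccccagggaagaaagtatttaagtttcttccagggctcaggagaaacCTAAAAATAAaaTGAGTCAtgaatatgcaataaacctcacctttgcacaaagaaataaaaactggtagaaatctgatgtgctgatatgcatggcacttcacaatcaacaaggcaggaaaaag
Vmn2r44: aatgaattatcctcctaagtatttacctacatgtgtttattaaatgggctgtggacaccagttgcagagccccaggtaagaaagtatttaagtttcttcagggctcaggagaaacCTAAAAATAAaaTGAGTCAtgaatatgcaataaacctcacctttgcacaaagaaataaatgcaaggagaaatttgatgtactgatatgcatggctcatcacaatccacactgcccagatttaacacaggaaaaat
These windows are 86.7% identical, so the shared motifs are not independent. Of the 12 windows with the MEF2 consensus, 9 belong to this chromosome 7 cluster (Vmn2r29 to Vmn2r37), whose 18 windows had a median identity of 99.0% to their nearest relative. Of the 31 windows with TGACTCA, 12 belong to the same cluster and 11 to a chromosome 17 cluster (Vmn2r90 to Vmn2r110). In the latter the median nearest identity was 85.3%, so the excess of TGACTCA was not spread evenly over the family. No MEF2C peak lay within 5 kb of Vmn2r41 or Vmn2r44 in the 8 lists.

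How far heterochromatin reached over the receptor genes was read from the share of each gene body under H3K9me3 peaks. Mean cover of the 123 genes was 5.38% and 20.4% in the ground-state lists (replicates 1 and 2) and 7.89% and 29.5% at day 1. The same means over all protein-coding genes were 1.76%, 6.53%, 2.68% and 7.13%. Receptor cover was thus above the mean of all genes in each of the 4 lists. Divided by the share of the assembled chromosomes under each list, receptor cover was 2.17, 1.73, 1.92 and 2.16 times that share, and all-gene cover 0.710, 0.552, 0.653 and 0.523 times. The median receptor gene had 0% in both shorter lists and 6.04% and 5.94% in the longer ones, while the median over all genes was 0% in all 4 lists. The family was therefore heterogeneous: 46 of 123 genes had no H3K9me3 cover in any list, against 69.7% of all genes, and 30 had some in all 4, against 11.6%.

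A gene was called covered when at least 50% of its body lay under peaks. In the ground state 4 and 18 receptor genes were covered (replicates 1 and 2), where 1.04% and 4.88% of all genes were. At day 1 the counts were 4 and 39, with 1.68% and 5.73% of all genes. Both ground-state lists covered the same 4 receptor genes (0.987% of all genes), as did both day 1 lists (1.51%). These 4, Vmn2r84 to Vmn2r87, were covered in all 4 lists, as were 0.73% of all genes. Leaving the 4 genes out, the other 119 had means of 2.87%, 17.8%, 5.26% and 27.1% (ground state, then day 1) and none was covered in a shorter list.

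Vmn2r84 to Vmn2r87 lie together on chromosome 10 (chr10:130385800-130497379). Vmn2r85 had 97.9% and 100% of its body under H3K9me3 in the ground state and 87.5% and 100% at day 1. Vmn2r84 had 94.4% and 100%, then 83.5% and 100%. Vmn2r86 had 68.1% and 100%, then 100% and 100%, and Vmn2r87 had 60.3% and 94.7%, then 73.5% and 95.0%. All 4 genes were high in every list, in contrast to the rest of the family. The cover ran on past the receptors, over Tespa1 at 67.3% and 100%, then 71.5% and 100%, and over the neuronal transcription factor gene Neurod4 at 69.1% and 100%, then 67.0% and 100%. The longer day 1 list drew the cluster as 2 peaks, the longest 245 kb, and the longer ground-state list as 3, the longest 77.6 kb. The shorter lists drew it as 30 and 17 peaks, the longest 13.2 kb and 20.1 kb. H1.0 cover of the cluster averaged 56.2% in the longer ground-state list and 34.2% in the longer day 1 list, and 4.67% and 0% in the shorter ones.

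**Figure D1:**
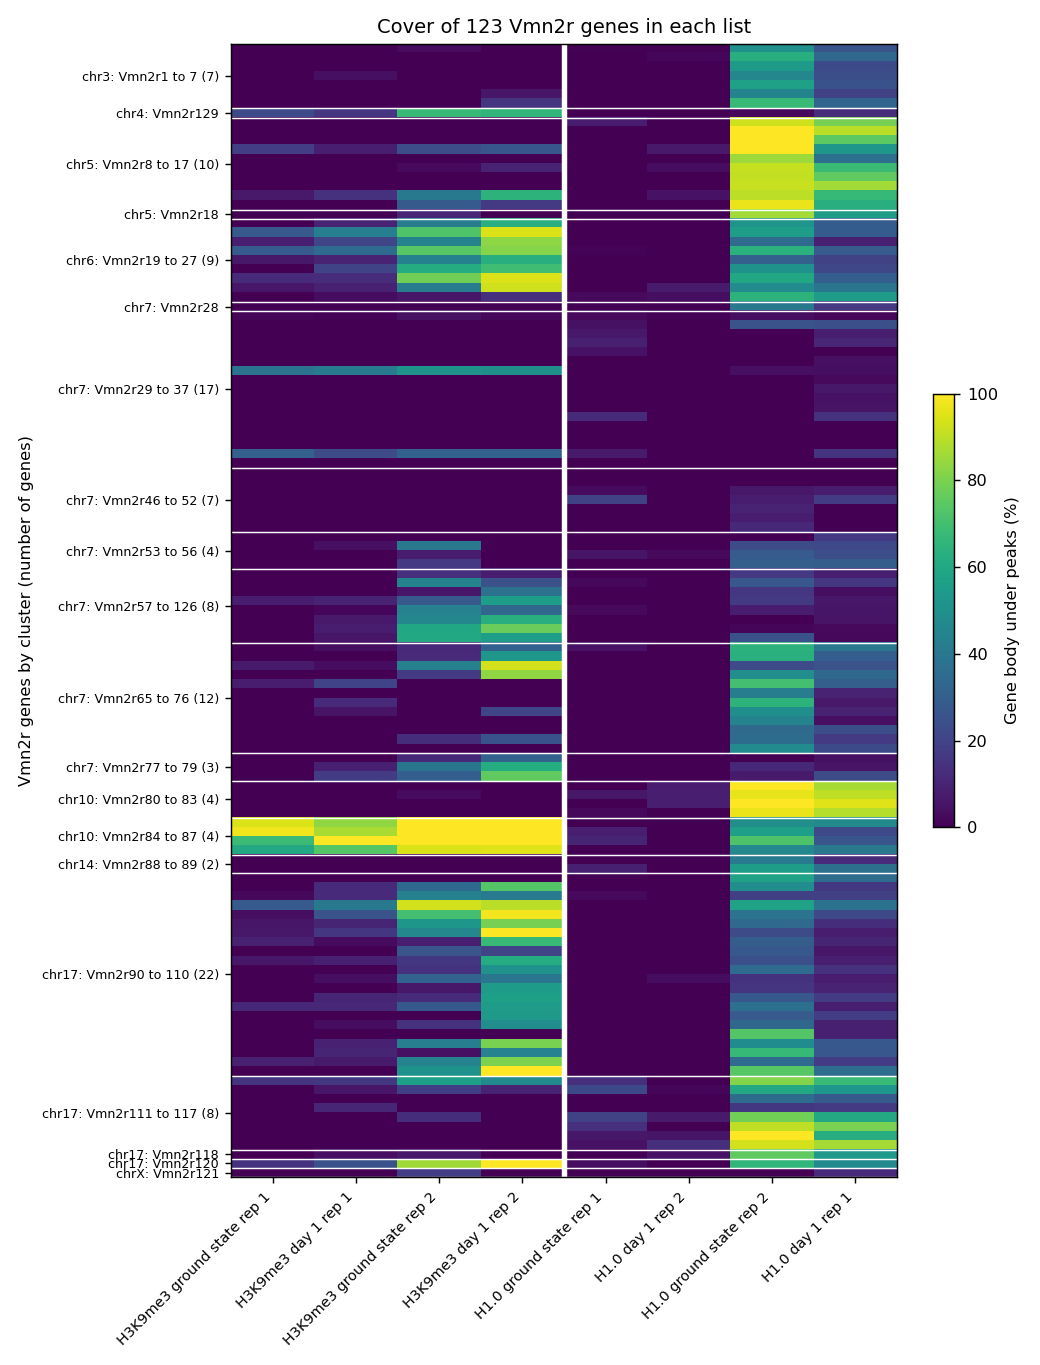
Percent of each gene body under H3K9me3 (left 4 columns) and H1.0 peaks (right 4 columns) for 123 Vmn2r genes, 1 row per gene in genome order, with white lines between clusters; on each side, the 2 shorter lists come first. Vmn2r84 to Vmn2r87 are bright in all 4 H3K9me3 columns, the chromosome 7 cluster from Vmn2r29 is dark apart from Vmn2r35 and Vmn2r38 under H3K9me3 and weak H1.0 in some genes, and H1.0 is seen mainly in the 2 longer lists.

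Other clusters were covered mainly in the longer lists. The 22 genes on chromosome 17 (chr17:17703941-20596259, Vmn2r90 to Vmn2r110) averaged 3.75% and 29.2% H3K9me3 in the ground state and 8.35% and 58.9% at day 1. In the longer lists their range was wide, 0% to 93.3% in the ground state and 0% to 100% at day 1. Vmn2r90, at the start of the cluster, had 0% in all 4 lists, and Vmn2r92 had 28.3% and 93.3% in the ground state and 40.6% and 89.6% at day 1. The space between the genes was covered much like their bodies, at 41.5% against 31.5% in the longer ground-state list and 61.1% against 59.4% at day 1. The 9 genes on chromosome 6 (chr6:123308333-124231784, Vmn2r19 to Vmn2r27) averaged 9.96% and 51.8%, then 18.3% and 73.0%. Vmn2r20, with the highest mean over the 4 lists there, had 27.9% and 72.4%, then 43.0% and 94.7%. A lone gene on chromosome 17, Vmn2r120, had 14.5% and 85.7%, then 25.4% and 100%.

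On chromosome 7, H3K9me3 differed between neighbouring clusters. The 8 genes from Vmn2r57 to Vmn2r126 averaged 37.9% and 44.4% in the longer ground-state and day 1 lists, and Vmn2r63, with the highest mean over the 4 lists, had 59.97% and 77.1%, beside 60.9% and 55.8% for Vmn2r126. The 12 genes from Vmn2r65 to Vmn2r76 averaged 8.12% and 25.6%, with Vmn2r67 the highest at 43.7% and 93.2%. The 3 genes from Vmn2r77 to Vmn2r79 averaged 26.7% and 56.3%. Vmn2r79 had the highest mean over the 4 lists there, with 29.7% and 75.7% in the longer ones, where Vmn2r78 had 38.9% and 62.0%. In the shorter lists each of these cluster averages was at most 8.86%, so this order rests on the longer lists.

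In a further pair of clusters on chromosome 7, 20 of 24 genes had no H3K9me3 over their bodies in any list. In the 17 genes of chr7:7212996-9223653 (Vmn2r29 to Vmn2r37) mean H3K9me3 was 4.12% and 5.11% in the ground state and 3.88% and 4.89% at day 1, and in the 7 genes of chr7:9754636-10176286 (Vmn2r46 to Vmn2r52) it was at most 0.0143%. In the shorter lists the first cluster was above the mean of all genes (1.76% and 2.68%). In the longer ones it was below (6.53% and 7.13%). Between the genes of the second cluster, H3K9me3 covered 5.21% and 7.91% in the longer ground-state and day 1 lists. Together these clusters held 20 of the 46 genes without H3K9me3 in any list. H1.0 was low there too, at 1.97% and 6.03% in the first cluster and 6.06% and 3.66% in the second in the longer ground-state and day 1 lists. Vmn2r45, Vmn2r40, Vmn2r39, Vmn2r37, Vmn2r46 and Vmn2r47, all in these clusters, had no H1.0 in any list (5.09% of all genes), and 5 of the 6 had neither mark in any of 8 lists (4.02% of all genes). The exception was Vmn2r46. Over the whole family these counts are 4.88% and 4.07% of the 123 genes, both near the share of all genes. Vmn2r35 and Vmn2r38 differed from their neighbours, 14 of the 17 genes being at 0% H3K9me3 in all 4 lists. Vmn2r35 had 38.2% and 51.3% in the ground state and 41.5% and 49.97% at day 1, and Vmn2r38, named after its values were seen, had 30.6% and 31.0%, then 23.4% and 31.0%. The promoters of these genes are close copies, with a median nearest identity of 99.0% and 96.0% in the clusters, and how reads aligning to several copies were treated is not stated in the sources read, so the part this played in the low cover was not tested. The 8 genes of chr17:22547941-23479597, with a median nearest identity of 98.2%, had H1.0 at 69.5% and 56.8% in the longer lists. Over 117 genes, nearest promoter identity and mean cover had Pearson r = 0.00104 and Spearman rho = -0.174 for H3K9me3, and r = -0.113 and rho = -0.219 for H1.0. These are descriptions over genes that share libraries and sequence. The identities are those of 300-base promoter windows and not of gene bodies. They therefore do not bear on how reads aligned, which was not tested.

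**Figure D2:**
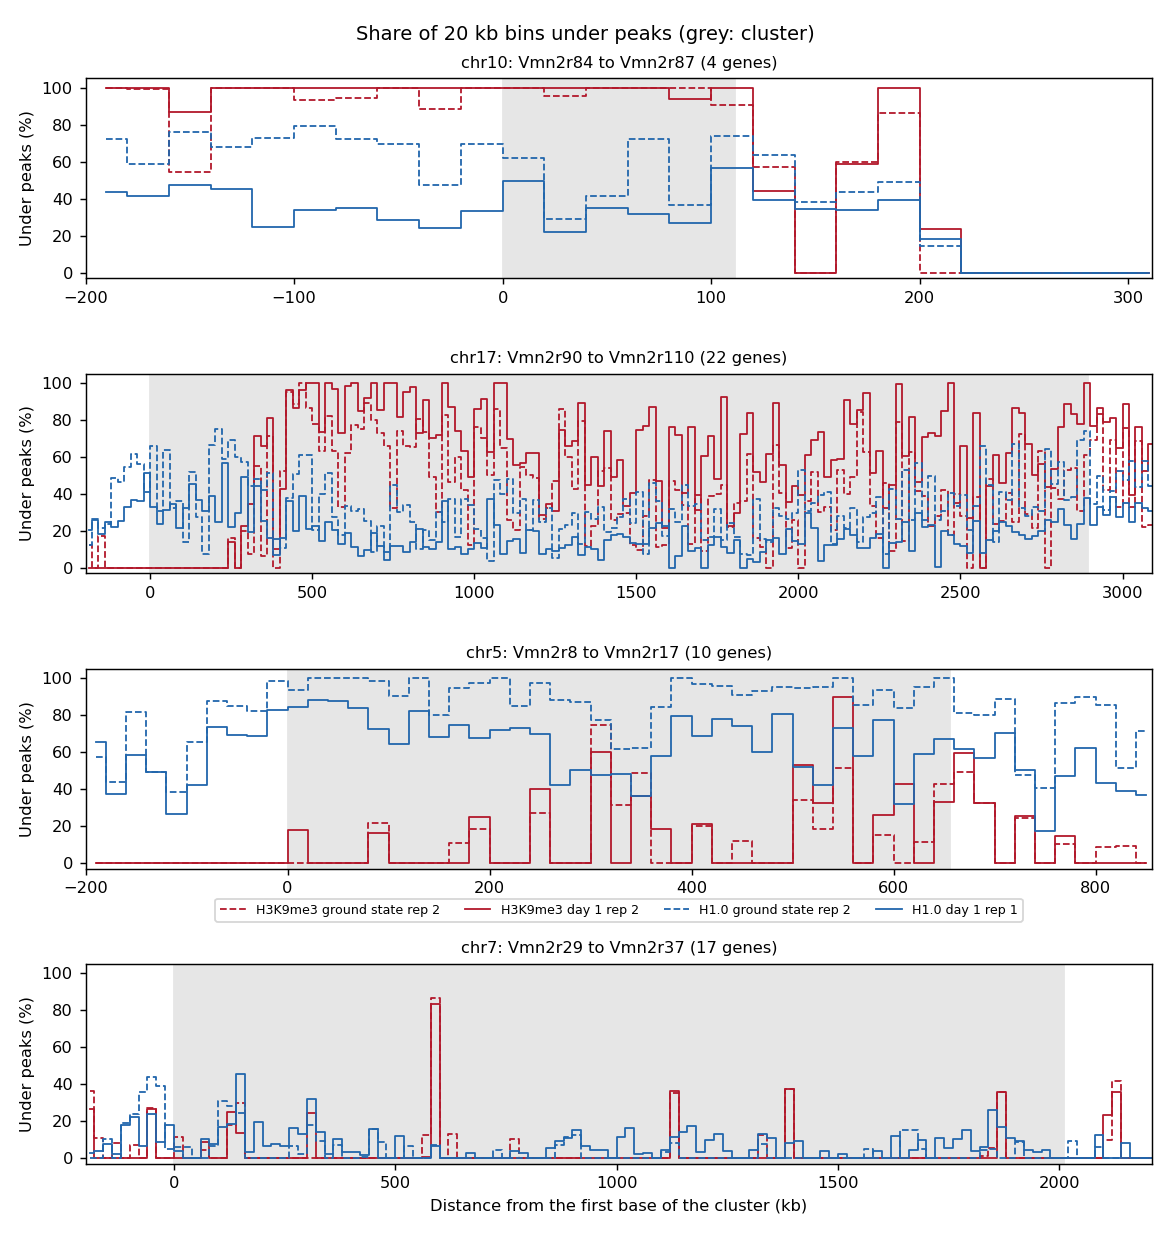
Percent of each 20 kb bin under H3K9me3 (red) and H1.0 peaks (blue) in the longer ground-state (dashed) and day 1 lists (solid), against distance in kb from the first base of 4 Vmn2r clusters, with the cluster in grey. H3K9me3 fills the Vmn2r84 cluster and its upstream side, covers most of the Vmn2r90 cluster from about 300 kb on, and forms isolated bins in the Vmn2r29 cluster, while H1.0 is highest in the Vmn2r8 cluster.

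H1.0 over the receptors was read in the same way. Mean cover was 1.79% and 41.1% in the ground-state lists (replicates 1 and 2) and 26.6% and 0.759% at day 1, against 6.46%, 39.9%, 41.8% and 1.85% over all protein-coding genes. The receptor mean was below that of all genes in 3 of 4 lists and slightly above it in the longer ground-state list. The median gene had 0% in both shorter lists and 36.7% and 19.6% in the longer ones, where the median over all genes was 36.6% and 41.8%. Covered receptor genes numbered 0 and 46 in the ground state (1.55% and 34.9% of all genes) and 22 and 0 at day 1 (36.4% and 0.344% of all genes). No receptor gene was covered in both lists of the ground state (0.914% of all genes) or of day 1 (0.294%). The longer lists shared 22 covered genes, against 22.3% of all genes.

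H1.0 was highest in clusters with little H3K9me3 over their gene bodies. The 4 genes of chr10:79148816-79492154 (Vmn2r80 to Vmn2r83) averaged 98.3% and 90.3% H1.0 in the longer ground-state and day 1 lists, and at most 0.720% H3K9me3 in any list. Vmn2r82 had the highest mean H1.0 of the family, with 0% and 100% in the ground state and 95.0% and 8.43% at day 1, and no H3K9me3 in any list. The 10 genes of chr5:108797193-109453387 (Vmn2r8 to Vmn2r17) averaged 93.9% and 69.3% H1.0 and 9.48% and 11.8% H3K9me3 in the longer lists. Within that cluster Vmn2r9 had 100% and 89.7% H1.0 and no H3K9me3, and Vmn2r16 had 89.9% and 67.0% H1.0 with 40.4% and 64.6% H3K9me3. The 8 genes from Vmn2r111 to Vmn2r117 averaged 69.5% and 56.8% H1.0, with Vmn2r117 at 93.2% and 86.7%. Of the 22 genes covered by H1.0 in both longer lists, 9 lay in the chromosome 5 cluster, 6 in the Vmn2r111 cluster and 4 in the Vmn2r80 cluster. H3K9me3 covered 16 genes in both longer lists (4.09% of all genes). No receptor gene was among both the 16 and the 22. Of all genes 0.79% were covered by both marks in both longer lists, so 0 of 123 is near that share. Mean cover by H1.0 and by H3K9me3 over the 123 genes had Pearson r = -0.00647 and Spearman rho = 0.0524, a description over genes that share libraries.

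**Figure D3:**
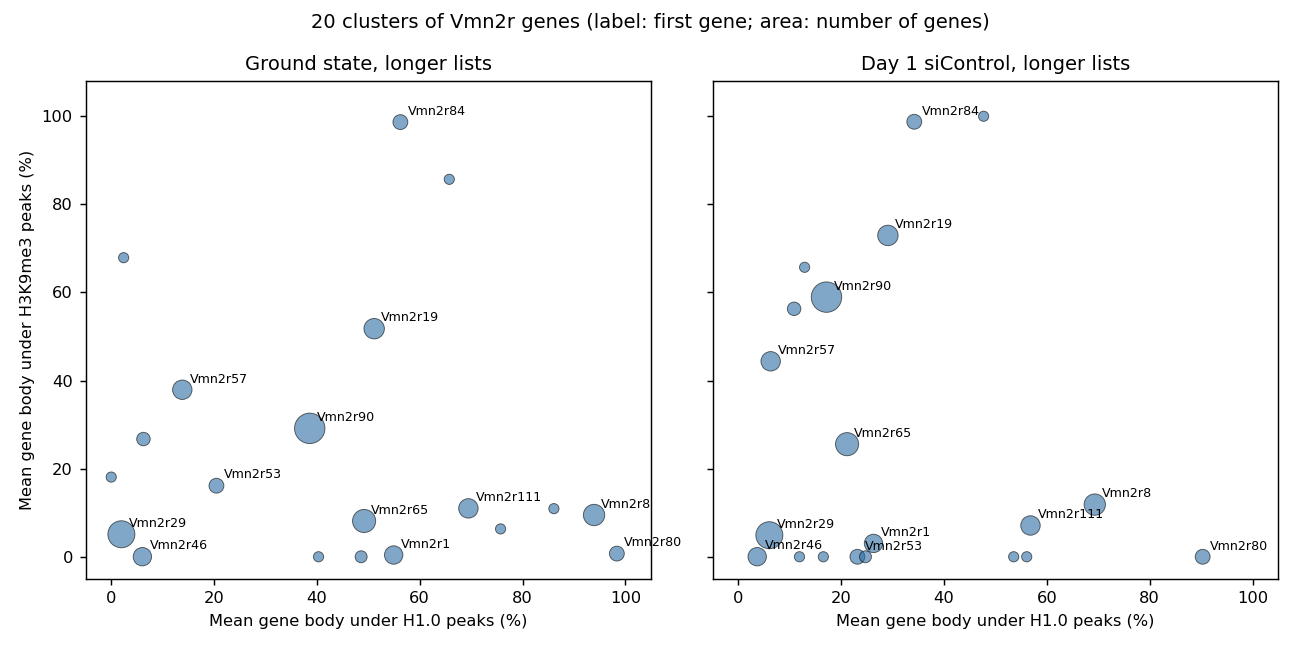
Mean percent of gene body under H1.0 peaks (x axis) and under H3K9me3 peaks (y axis) for each of 20 Vmn2r clusters in the longer lists of the ground state (left) and day 1 (right); the area of a point grows with the number of genes, and clusters of at least 4 genes carry the name of their first gene. In the left panel the Vmn2r80 cluster sits at 98.3% on the x axis and 0.720% on the y axis, and the Vmn2r84 cluster at 56.2% and 98.7%.

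The family C receptors, the co-receptors of the system, lie together on chromosome 3 (chr3:64078172-64719602). Their 7 genes averaged 0.0832% and 54.9% H1.0 in the ground state and 26.3% and 0.353% at day 1. H3K9me3 averaged 0% and 0.397%, then 0.602% and 3.03%. Vmn2r7 had the most H3K9me3 of them, at 15.3% in the longer day 1 list and 0% in the other 3 lists. None of the 7 was covered by H3K9me3 in any list, where 1.04% to 5.73% of all genes were, so 0 of 7 is near that share.

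Genes that work with the receptors were taken from fixed lists, and these differed in H3K9me3. Of 13 vomeronasal signalling genes, 1 was covered in each longer list (4.88% and 5.73% of all genes, ground state and day 1). That gene was Adcy2, an adenylyl cyclase, at 72.7% in the ground state and 80.2% at day 1, while the channel gene Trpc2 had 15.4% and 0% and Gnao1 had 2.61% and 3.04%. Of 12 genes for V2R neuron and vomeronasal identity factors, none was covered by H3K9me3 in any list (1.04% to 5.73% of all genes per list). The 8 H2-Mv genes, class Ib MHC genes expressed with V2Rs, had 0% H3K9me3 in all 4 lists and a mean H1.0 of 86.9% and 74.5% in the longer lists. Among 7 formyl peptide receptor genes, Fpr-rs3, Fpr-rs6 and Fpr-rs7 had 100% H3K9me3 in the longer day 1 list, and 32.3%, 0% and 0% in the longer ground-state list. The 42 genes matching the prefixes of peptide and protein ligands (Esp and Mup) averaged 24.2% and 29.0% H3K9me3 in the longer lists, and 10 and 11 of them were covered (4.88% and 5.73% of all genes). This set was chosen by prefix alone and may hold genes that encode no ligand. Of 22 other class C receptor genes, none was covered by H3K9me3 in any list. Counts of 0 of 12, 0 of 22 and 1 of 13 are near the share of all genes.

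Other chemoreceptor families and Vmn2r pseudogenes gave a frame for these levels. In the longer ground-state and day 1 lists, H3K9me3 averaged 13.0% and 18.6% over 229 Vmn1r genes and 19.7% and 29.8% over 1109 Olfr genes, beside 20.4% and 29.5% for Vmn2r. H1.0 in the longer lists averaged 33.4% and 22.8% for Vmn1r and 67.6% and 52.1% for Olfr, beside 41.1% and 26.6%. The 148 Vmn2r pseudogenes averaged 17.0% and 25.4% H3K9me3 and 32.4% and 23.3% H1.0. Vmn2r genes have a median length of 24.5 kb against 0.924 kb and 0.951 kb for Vmn1r and Olfr, and the effect of length on cover was not tested between families.

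Whether cover differed at day 1 from the ground state was tested with limma across all 21779 protein-coding genes. With Benjamini-Hochberg adjustment at 0.05, 0 receptor genes passed for either mark in either direction, and 0% of all genes did. At an unadjusted p under 0.05 the counts were 34 genes for H3K9me3 and 20 for H1.0, none of them a receptor gene. The mean of the 123 genes was 12.9% ± 10.63 (SD, n = 2) in the ground state and 18.7% ± 15.3 (SD, n = 2) at day 1 for H3K9me3. For H1.0 it was 21.4% ± 27.8 (SD, n = 2) and 13.7% ± 18.3 (SD, n = 2). Differences between states were therefore smaller than the spread between the 2 lists of a state. No receptor gene was covered in both lists of one state and uncovered in both of the other, for either mark. Among all genes the share for H3K9me3 was 0.0689% toward day 1 and 0.00918% toward the ground state, and for H1.0 it was 0.0275% and 0.147%. Both day 1 lists lay above both ground-state lists in 2 receptor genes for H3K9me3, Vmn2r72 and Vmn2r108 (0.781% of all genes), and in 0 for H1.0 (0.569%). Both ground-state lists lay above both day 1 lists in 0 for H3K9me3 (0.399%) and in 1 for H1.0, Vmn2r29 (0.877%). These 3 were named after their values were seen.

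Within pairs of lists that share a naming style, the values can be set side by side without a test, though the lists of a pair differ in length. Between the longer H3K9me3 lists, day 1 cover was above ground-state cover in 47 receptor genes (12.7% of all genes) and below it in 22 (14.9% of all genes), with a mean difference of 9.05 percentage points against 0.605 over all genes. Between the shorter lists it was above in 45 (14.6%) and below in 9 (5.79%), with a mean difference of 2.51 points against 0.924. In both pairs at once, 30 receptor genes were above (6.63% of all genes) and 2, Vmn2r29 and Vmn2r129, below (3.13%). Of these 30, 11 lay in the chromosome 17 cluster from Vmn2r90 and 9 were all the genes of the chromosome 6 cluster. A difference of at least 20 points between the longer lists was found in 29 genes (2.16% of all genes), 16 of them in the chromosome 17 cluster. Vmn2r68, named after its values were seen, had the largest, from 17.1% to 83.5%, with 0% in both shorter lists. Vmn2r54, likewise named afterwards, went the other way, from 39.9% to 0%, and from 0% to 3.92% in the shorter lists.

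List length moved with these differences, since both day 1 H3K9me3 lists were longer than their ground-state partners. When each list was reduced to the length of the shortest, keeping the peaks of highest signal, the mean difference turned to -0.543 points between the shorter lists, with 17 genes above and 22 below. Between the longer lists it was 0.838 points, with 9 above and 2 below. The excess of genes above over genes below was thus absent in the shorter lists at equal length, and remained with a smaller difference in the longer ones. Mean receptor cover in the longer pair was by then 5.75% and 6.59%, which left no room for the full 9.05 points. The means over all genes were 1.79% and 1.93%. The shorter ground-state list was left whole while the others were cut, so this cannot decide whether the states differ.

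**Figure D4:**
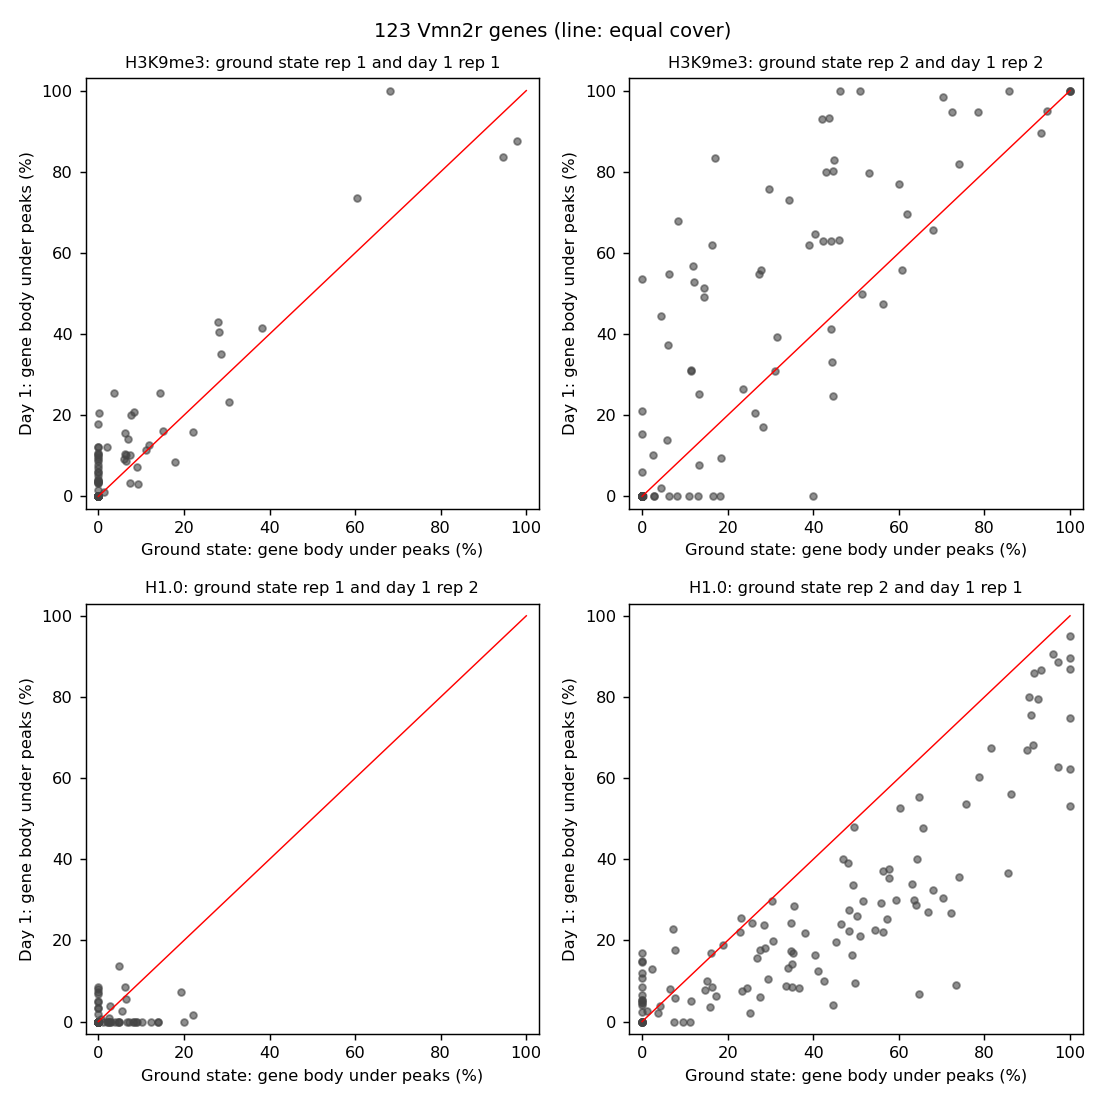
Percent of gene body under peaks at day 1 (y axis) against the ground state (x axis) for 123 Vmn2r genes, for H3K9me3 (top) and H1.0 (bottom), with the shorter lists on the left, the longer on the right and a red line of equal cover. In the longer lists 47 points lie above the line, 22 below and 54 on it for H3K9me3, and 20 lie above, 96 below and 7 on it for H1.0.

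H1.0 went the opposite way in the longer lists. Day 1 cover was below ground-state cover in 96 receptor genes (42.3% of all genes) and above it in 20 (50.9%), with a mean difference of -14.5 points where all genes had 1.89. Between the shorter lists it was below in 26 (49.6%) and above in 13 (9.57%), with a mean difference of -1.03 points against -4.61. In both pairs at once 19 were below (19.8%) and 0 above (4.55%). All 22 genes of the chromosome 17 cluster from Vmn2r90 were below in the longer lists, where their mean was 38.6% in the ground state and 17.1% at day 1. Both day 1 H1.0 lists were shorter than their ground-state partners, at 911 Mb against 1109 Mb and 28.6 Mb against 93.0 Mb. At equal list length the longer pair differed by -2.29 points, with 8 genes above and 8 below. The shorter pair differed by -0.0212 points, with 15 above and 9 below. Here the shorter day 1 list was left whole while the others were cut, so this cannot decide whether the states differ.

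MEF2C, one of the induced factors, was placed against the receptor genes by peaks within 5 kb of the gene body. Under siControl 2 and 6 of 123 receptor genes had such a peak (replicates 1 and 2), where 30.3% and 49.5% of all protein-coding genes did. Under siJunb the counts were 5, 11 and 11 (26.7%, 54% and 42% of all genes), and under siH1f0 they were 1, 4 and 2 (45%, 52.4% and 34.9%). In any of the 8 lists 19 receptor genes had a peak (68.8% of all genes), in at least 2 lists 10 did (58.6%), and in all 8 none did (16.2%). The receptors were thus below the share of all genes in each of the 8 lists. For contrast, all 12 fibroblast genes and all 15 housekeeping genes of the fixed lists had a peak within 5 kb in at least 1 list.

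Means per list were 4 ± 2.83 (SD, n = 2) receptor genes under siControl, 9 ± 3.46 (SD, n = 3) under siJunb and 2.33 ± 1.53 (SD, n = 3) under siH1f0. Counts under siJunb (5 to 11) overlapped those under siControl (2 to 6) and lay above those under siH1f0 (1 to 4). No test was made, since an exact permutation test cannot go below 0.2 for 3 against 2 lists or 0.1 for 3 against 3. Over all genes, the shares for siJunb and siH1f0 overlapped. With the lists reduced to equal length, the counts were 1 and 0 under siControl, 5, 0 and 0 under siJunb and 0, 0 and 2 under siH1f0. The shares of all genes were then 27.3% and 12.2%, then 26.7%, 17.2% and 16.1%, then 11.4%, 9.13% and 23.7%. Counts under siJunb and siH1f0 thus overlapped at equal length. The shortest list, siJunb replicate 1, was left whole while the others were cut, so this cannot decide whether the groups separate.

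**Figure D5:**
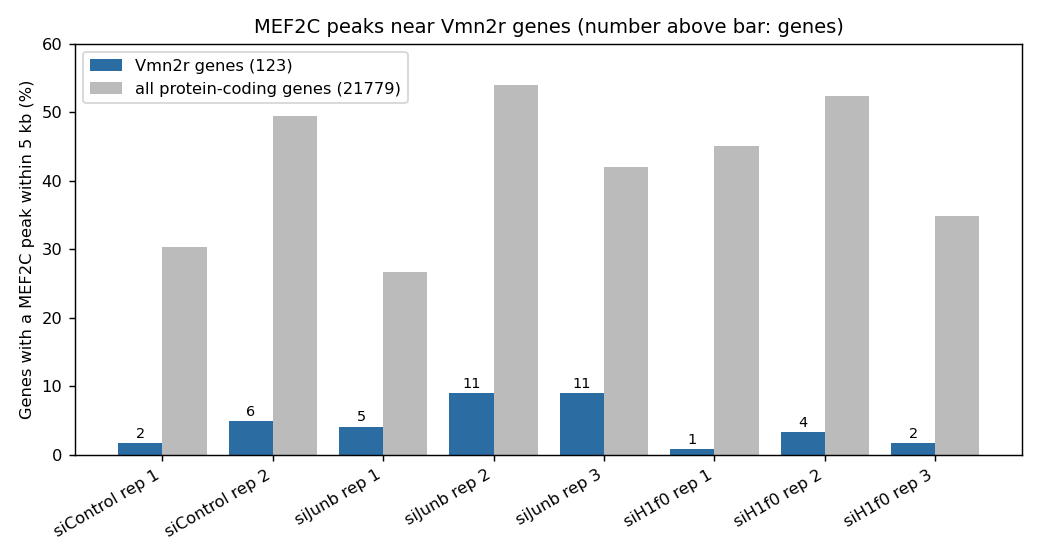
Percent of genes with a MEF2C peak within 5 kb in each of 8 lists, for 123 Vmn2r genes (blue, number of genes above the bar) and for all 21779 protein-coding genes (grey), by siRNA and replicate. The blue bars stand at 1 to 11 genes and below the grey bar in every list.

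The receptor genes near MEF2C peaks were mostly those under H1.0. Of the 19, 12 belonged to the Vmn2r80 cluster on chromosome 10 (all 4 of its genes) and the Vmn2r8 cluster on chromosome 5 (8 of 10 genes). Mean H1.0 in the longer lists was 78.9% in the ground state and 61.6% at day 1 for the 19 genes, and 34.2% and 20.2% for the other 104. Mean H3K9me3 in the longer lists was 15.6% and 14.5% for the 19, and 21.3% and 32.2% for the other 104. All 76 MEF2C peaks near receptor genes overlapped an H1.0 peak of at least 1 list, as did 95.4% of all MEF2C peaks, and 19 of the 76 overlapped H3K9me3, as did 10.42% of all.

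Vmn2r13, in the chromosome 5 cluster, had MEF2C peaks in the most lists, 6 of 8: both siControl lists, siJunb replicates 2 and 3 and siH1f0 replicates 1 and 2. In 4 of these a peak lay inside the gene near chr5:109166888-109168536, at the 86.3, 74.7, 91.1 and 75.9 percentile of maximum signal within its list (siControl replicates 1 and 2, siH1f0 replicate 2, siJunb replicate 2). Vmn2r82 had peaks in 5 lists, all overlapping the gene. Those of siControl replicate 2, siJunb replicate 1 and siH1f0 replicate 2 shared a place near chr10:79361819-79363770, and those of siJunb replicates 2 and 3 lay elsewhere. Vmn2r129 on chromosome 4 (chr4:156331103-156339499) also had peaks in 5 lists, all but 1 of them lying 637 to 3670 bp past the end of the gene, and all within H3K9me3 peaks of at least 1 list. Its body had 22.0% and 67.9% H3K9me3 in the ground state and 15.8% and 65.7% at day 1. Vmn2r8, Vmn2r29 and Vmn2r80 had peaks in 3 lists, and Vmn2r9, Vmn2r10, Vmn2r17 and Vmn2r81 in 2.

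The CpG-rich window of Vmn2r29 was the exception among promoters. A MEF2C peak lay over this window in siControl replicate 2, siJunb replicate 1 and siH1f0 replicate 3, as did H3K9me3 in all 4 lists and H1.0 in 3 of 4. The second window of Vmn2r29 held no peak in any list. The body of Vmn2r29 had at most 4.54% H3K9me3 in any list. The start at the CpG-rich window lies 4.02 kb from Clcn4, a chloride transporter gene, so the signal there cannot be given to one gene alone. Over all 118 windows, H3K9me3 peaks lay on 5 and 16 in the ground state (1.13% and 5.34% of all windows) and on 9 and 27 at day 1 (2.19% and 5.62%). MEF2C peaks lay on 0 to 2 receptor windows per list, where 8.82% to 31.3% of all windows held one.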

How the data were processed

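Per the submitters' processing notes, reads were handled with Bowtie2 and SEACR on mm10 (versions not stated). The deposited values are signal, the whole-number coverage of each SEACR relaxed peak and its maximum, and no scaling by depth was seen in them. The labels give 30 M reads per sample. The number aligned, the use of the 8 IgG samples (not analysed here) and the handling of duplicates and repeats are not stated in the sources read. List length and the spread between lists therefore served to judge precision. What a biological replicate repeated is not said in the labels, so a p-value reflects the spread of these lists alone, possibly a technical one.

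Peaks of the assembled chromosomes were merged per list, and the percent of each gene body covered was computed (Python 3.11.15, pandas 2.3.3), with a minimum overlap of 1 bp for nearby peaks. Gene positions carry no exons, so exons, introns and UTRs were not told apart. limma 3.58.1 (R 4.3.3) tested percent cover over all protein-coding genes, with p set to 1 for genes of no variation. The steps were tested on simulated data. Genes were named by rule: the highest and lowest by mark, the highest H3K9me3 gene of each cluster and those with MEF2C in at least 2 lists, with 46 genes tied at 0 for H3K9me3 and 6 for H1.0. The members, lists and rules were chosen with earlier results of these data known. Alternatives changed peak threshold, list length, call threshold, window, block and lists used.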

Additional observations from a re-analysis of the deposited data

How the results depend on the processing

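Of 90 alternatives, 72 kept their value within the allowed range, 18 moved and none reversed. Many that kept their value are counts at 0 with little room to move, so the tally does not measure how firm the results are. The day 1 minus ground-state mean for H1.0 also counts as kept. It went from -7.75 to -1.16 points at equal length, beside an SD of 9.49. The count of genes covered by H3K9me3 in both lists was 9 at 25% and 2 at 75% of the gene body in the ground state, and 10 at 25% at day 1, in place of 4. Leaving out each replicate in turn gave 4 to 18 (H3K9me3, ground state), 4 to 39 (H3K9me3, day 1), 0 to 46 (H1.0, ground state) and 0 to 22 (H1.0, day 1), so these counts rest on the shorter list of each state. At equal list length the day 1 minus ground-state mean for H3K9me3 fell from 5.78 to 0.148 points, an alternative chosen after seeing the data; the cause was not tested. Genes near MEF2C in any list numbered 11 with the upper 50% of peaks and 6 at equal length, in place of 19. Shares of all genes for these MEF2C counts, and for the 25% and 75% thresholds, are not given here. Mean counts per list with a 20 kb window, the upper 50% of peaks and equal length were 8.5, 1 and 0.5 under siControl and 13, 4.33 and 1.67 under siJunb, and under siH1f0 5.33 with 20 kb and 0.667 at equal length. The replicate block left 0 receptor genes past the threshold for both marks, with 4 for H3K9me3 at an unadjusted p under 0.05 in limma (0.868% of all genes). Same-numbered deviations correlated at 0.587 for H3K9me3 and -0.385 for H1.0, where crossing the numbers also gave 0. Clusters numbered 27 with a gap of 250 kb and 18 with 1000 kb. The shortest lists, 65.9 Mb (H3K9me3), 28.6 Mb (H1.0) and 13.4 Mb (MEF2C), limit what can be called in every list.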
